A study of Mus musculus with 6 samples.

Results

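The genes described here are the ADAM, ADAMTS and matrix metalloproteases and their TIMP inhibitors in a mouse group 2 innate lymphoid cell (ILC2) line. ILC2s are lymphocytes without antigen receptors that make type 2 cytokines. Members were all rows of the deposited table whose Entrez number maps to a symbol made of Adam, Adamts, Mmp or Timp and a number, with any letter suffix. The rule found 78 genes among 25206 rows: 34 ADAM, 18 ADAMTS, 22 MMP and 4 TIMP genes. The knockout group has 3 arrays of cells given a guide against Cbfb, and the control group has 3 arrays of cells given a non-target guide. Both groups carried the guide in a lentiviral CRISPR construct with GFP, and GFP+ cells were sorted on day 6 after transduction. All cells came from C57BL/6J mice and grew with IL-2 and IL-33, each at 10 ng/ml. Nothing in the labels says that the samples of a group were separate cultures, or that a line is or is not 1 clone. The p-values therefore cover the spread between these samples alone, which may be technical.

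ADAMs are membrane-anchored proteases that cut the outer parts of cytokines, growth factors and receptors off the cell surface, a step called shedding. ADAMTS enzymes are secreted relatives that cut proteoglycans, procollagens and other matrix proteins, and MMPs cut collagens, gelatins and many further matrix and non-matrix proteins. TIMPs bind and block the active site of most MMPs and of some ADAM and ADAMTS enzymes. Core-binding factor beta, the product of Cbfb, is the partner that RUNX transcription factors need to bind DNA firmly.

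Among the 78 genes, 5 rose and 4 fell in the knockout (limma adjusted p under 0.05 over all 25206 rows). The falls were those of Adamts1 and Adamts5, enzymes that cut large proteoglycans, and of the membrane proteases Adam8 and Adam19. The rises were those of Adamts6, Adamts10 and Adamts13, of the stromelysin gene Mmp10 and of Mmp25, the gene of a membrane-anchored MMP. These 9 genes make up 11.5% of the members, beside 9.75% called over all rows in either direction (5.51% higher and 4.24% lower), so the share of members called is near that of the table as a whole. The median change was -0.03 over the 78 members and -0.01 over all rows, on the log2 scale. In 19 members, or 24.4%, the knockout and control arrays formed ranges without overlap, beside 27.5% of all rows.

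The array value is a log2 signal, and probes of different genes respond differently, so values are compared between groups within a gene and not between genes. Of the 78 members, 20 had a mean over the 6 arrays above 3.60, the median of all group means. That value is no detection limit, and the table has no detection calls. Among those 20 members 8 were called, or 40%, beside 18.1% of all rows above that value. Among the 58 members at or under it 1 was called, Adamts13, or 1.72%, beside 1.42% of all rows there. No test was made of these differences in share. Changes at low values can be understated, so for most of the 78 genes a change could have been missed.

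**Figure D1:**
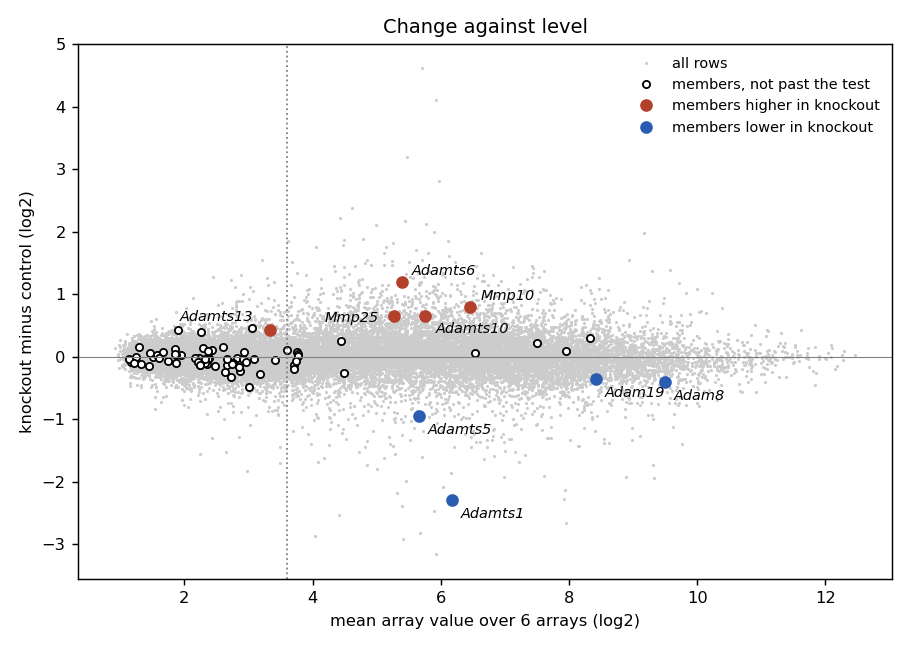
Change (knockout minus control, log2) against the mean array value over 6 arrays (log2), with all 25206 rows in grey and the 78 members as circles. Filled members passed the test, 5 higher (red) and 4 lower (blue) in the knockout; open members did not, and most of them lie left of the dotted line at 3.60, the median of all group means.

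The targeted gene was checked before the members. Cbfb read 7.88, 7.69 and 7.91 in the knockout arrays, against 8.53, 8.73 and 8.70 in the control arrays. This change of -0.83 (SE 0.099, limma adjusted p = 0.00205) leaves 56.4% of the control signal on a linear scale. The signal shows transcript and not how many cells were edited or how much protein was left. Arrays of 1 group correlated at 0.995 to 0.996 (Pearson, across rows) and arrays of different groups at 0.988 to 0.991, and array medians lay between 3.57 and 3.63. Of 10 measured ILC2 markers, the lineage factor gene Gata3 averaged 10.68 in knockout and 10.58 in control, and the surface receptor gene Klrg1 averaged 11.36 in knockout and 11.37 in control. Of the 10, 5 were called, or 50%, beside 9.75% of all rows. Icos (-0.78), Il7r (-0.56) and Il5 (-0.33) fell, and Bcl11b (1.14) and Rora (2.22) rose, on the log2 scale. Rora averaged 5.53 in knockout and 3.32 in control, and Thy1 averaged 3.41 in both groups. Bulk arrays cannot tell fewer cells of a type from less RNA per cell.

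Promoter sequences are shown for the member with the largest change, Adamts1, and for Mmp10 and Adam19, called members whose promoters hold a match to the AP-1 motif and which were chosen for display after the matches were seen. They are the 250 bases before an annotated start, from RefSeq on build GRCm38.p6, where 48 of the 78 members had an entry. Capitals mark the AP-1 motif TGACTCA or its reverse complement TGAGTCA, and would mark the RUNX motif TGTGGT or its reverse complement ACCACA. These motifs do not overlap each other in the stretches shown. The Adamts1 stretch is chr16:85803114-85803363 (minus strand), that of Mmp10 is chr9:7502092-7502341 (plus strand), and that of Adam19, for 1 of its 3 annotated starts, is chr11:46055734-46055983 (plus strand).
Adamts1 promoter: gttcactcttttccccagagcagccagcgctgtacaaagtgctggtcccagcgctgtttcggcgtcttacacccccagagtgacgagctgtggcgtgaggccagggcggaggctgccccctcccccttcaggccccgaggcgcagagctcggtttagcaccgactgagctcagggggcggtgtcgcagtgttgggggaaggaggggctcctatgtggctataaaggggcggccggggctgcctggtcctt
Mmp10 promoter: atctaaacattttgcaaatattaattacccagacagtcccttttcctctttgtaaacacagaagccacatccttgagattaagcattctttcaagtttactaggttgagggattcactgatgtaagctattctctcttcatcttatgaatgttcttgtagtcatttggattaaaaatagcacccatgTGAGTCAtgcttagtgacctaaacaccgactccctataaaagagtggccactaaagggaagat
Adam19 promoter: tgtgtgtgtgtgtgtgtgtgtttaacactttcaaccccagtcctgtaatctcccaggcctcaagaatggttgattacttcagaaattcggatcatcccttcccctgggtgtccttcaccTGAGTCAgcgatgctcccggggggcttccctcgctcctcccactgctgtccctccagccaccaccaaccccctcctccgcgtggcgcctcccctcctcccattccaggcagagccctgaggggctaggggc
The stretch before Adamts1 holds neither motif. Nor do those before Adam8, Adamts13 and Mmp25, the other called members with an entry. The stretch before Mmp10 holds an AP-1 match beginning 63 bases before the start, and that before Adam19 one beginning 131 bases before it. Another annotated start of Adam19 has a RUNX match 231 bases before it. The AP-1 motif stands in 17% of 53 member promoters and in 4.46% of all 32851 promoters of this length, and the RUNX motif in 20.8% of the member promoters and in 14% of all promoters. The member shares count all members with an entry, called or not, and were not tested. A match is a description of the letters and does not show binding.

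Adamts1 (Entrez gene 11504, chromosome 16) encodes a secreted protease that cuts versican and aggrecan. It read 5.16, 4.93 and 4.98 in the knockout arrays, against 7.11, 7.35 and 7.51 in the control arrays. Every knockout array lay below every control array. The mean was 5.02 ± 0.12 in knockout and 7.32 ± 0.20 in control (SD, n = 3 arrays each), 4.92-fold lower in the knockout (limma adjusted p = 7.54e-05). Its 95% interval ran from -2.58 to -2.02 on the log2 scale, and the call held in each of 14 alternative fits.

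Adamts5 (Entrez gene 23794) encodes the main aggrecan-cutting enzyme of mouse cartilage and lies beside Adamts1 on chromosome 16, with no protein-coding gene between them in RefSeq order. It read 5.08, 5.50 and 4.99 in the knockout arrays, against 6.28, 5.86 and 6.27 in the control arrays. The groups did not overlap, and the closest arrays were knockout replicate 2 and control replicate 2. The change was -0.95 (SE 0.16, limma adjusted p = 0.0104), or 1.93-fold lower in the knockout. Adamts1 and Adamts5 were the members called among the 7 proteoglycan-cutting ADAMTS genes measured (28.6%, beside 9.75% of all rows). The other 5, Adamts4, Adamts8, Adamts9, Adamts15 and Adamts20, differed by -0.28 to 0.14 and did not pass, with 6-array means of 2.23 to 3.60.

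The 3 ADAMTS rises lay among the 11 genes outside the proteoglycan-cutting set (27.3% called, beside 9.75% of all rows). Adamts6 (Entrez gene 108154, chromosome 13), whose product acts on fibrillin-rich matrix, read 5.88, 5.86 and 6.25 in the knockout arrays, against 4.84, 4.94 and 4.64 in the control arrays. All knockout arrays were above all control arrays, a 2.28-fold rise (limma adjusted p = 0.00146) that held in each of 14 alternative fits. Adamts10 (Entrez gene 224697, chromosome 17), its closest relative and a fibrillin-associated protein, read 5.99, 6.06 and 6.18 in the knockout arrays, against 5.49, 5.53 and 5.28 in the control arrays. Again the groups did not overlap, and the rise was 1.56-fold (limma adjusted p = 0.00649).

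Adamts13 (Entrez gene 279028, chromosome 2) encodes the plasma protease that cuts von Willebrand factor. It read 3.59, 3.58 and 3.48 in the knockout arrays, against 3.07, 3.0 and 3.30 in the control arrays. The groups did not overlap, but both means, 3.55 ± 0.061 in knockout and 3.12 ± 0.16 in control (SD, n = 3 each), lie under 3.60, so its size is approximate. The rise was 0.43 (limma adjusted p = 0.0349), and it lost its call on dropping any array other than control replicate 3 (adjusted p 0.0274 to 0.122 over the 6 arrays dropped in turn). The other 8 ADAMTS genes measured outside the proteoglycan-cutting set, Adamts3, Adamts7, Adamts12, Adamts14, Adamts16, Adamts17, Adamts18 and Adamts19, differed by -0.32 to -0.05 and did not pass.

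**Figure D2:**
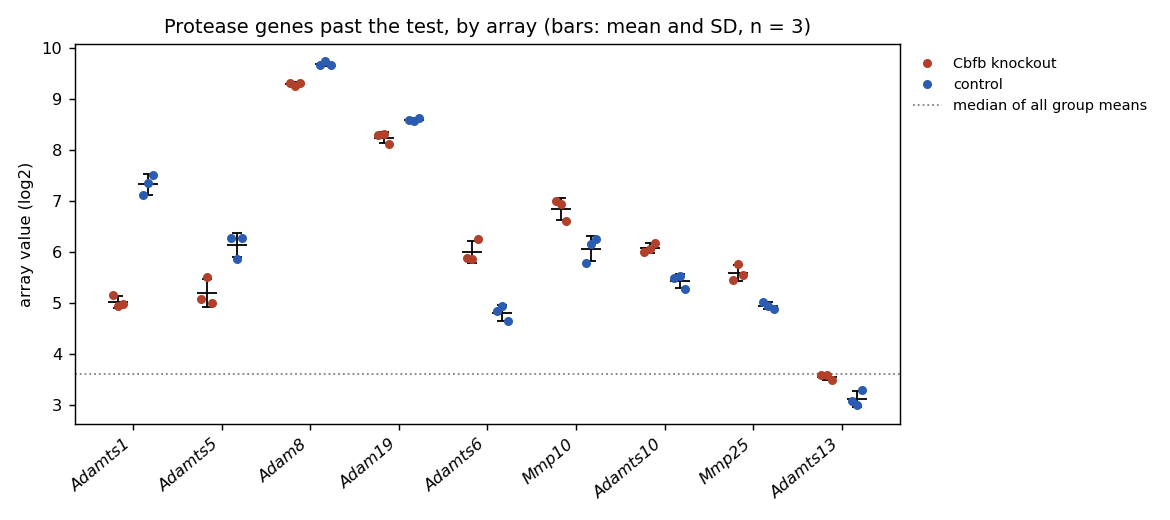
Array values (log2) of the 9 called genes in each of 3 knockout (red) and 3 control (blue) arrays, with mean and SD as bars. The groups overlap in none of the 9 genes, which were picked by the test on these same arrays, and in 27.5% of all rows they do not overlap either. The gap is widest for Adamts1. Adamts13 lies under the dotted line at 3.60, the median of all group means.

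Among the ADAMs, the 9 catalytic members known from many body tissues gave both calls. The 2 called genes make up 22.2% of these 9 and 5.88% of the 34 ADAM genes, beside 9.75% of all rows called. Of the 9, 7 had a 6-array mean above 3.60, where 28.6% were called, beside 18.1% of all rows there. Adam8 (Entrez gene 11501, chromosome 7), a leukocyte protease that cuts cell-surface adhesion and receptor proteins, read 9.32, 9.25 and 9.31 in the knockout arrays, against 9.67, 9.74 and 9.67 in the control arrays. The groups were apart by more than their spread, with SDs of 0.038 in knockout and 0.040 in control, but the change was small at -0.40 (1.32-fold lower, limma adjusted p = 0.0159). It missed the threshold without control replicate 2 (limma adjusted p = 0.0705) and without knockout replicate 2 (limma adjusted p = 0.0625). Adam19 (Entrez gene 11492, chromosome 11), a protease that can shed neuregulin, read 8.29, 8.31 and 8.11 in the knockout arrays, against 8.58, 8.57 and 8.63 in the control arrays. The groups did not overlap and differed by -0.36 (limma adjusted p = 0.0403), yet the call was lost whichever of the 6 arrays was dropped (adjusted p 0.073 to 0.122).

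Adam10 and Adam17 encode the principal sheddases of leukocytes, Adam10 with Notch receptors among its substrates and Adam17 with TNF. Adam10 read 8.43, 8.49 and 8.50 in the knockout arrays, against 8.13, 8.20 and 8.21 in the control arrays. The groups did not overlap, and the difference of 0.29 (95% interval 0.11 to 0.47) was just outside the threshold (limma adjusted p = 0.0532). Of 14 alternative fits 6 placed it inside (adjusted p 0.00521 to 0.144 over the 14). It stayed outside whichever of the 6 arrays was dropped (limma adjusted p 0.0907 to 0.144). Adam17 read 7.49, 7.60 and 7.75 in the knockout arrays, against 7.37, 7.46 and 7.38 in the control arrays, a difference of 0.21 (95% interval -0.0047 to 0.42, limma adjusted p = 0.229) without overlap of the groups. Adam9 averaged 7.99 in knockout and 7.91 in control, and Adam15 6.56 in knockout and 6.50 in control. Neither difference passed, with intervals of -0.099 to 0.27 for Adam9 and -0.15 to 0.26 for Adam15. The remaining catalytic ADAMs, Adam12, Adam28 and Adam33, differed by -0.20 to 0.15 and did not pass.

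The other 25 ADAM genes are best known from testis, epididymis or brain, and none passed the test (limma). Among them 2 had an unadjusted p under 0.05, as had 5780 of all 25206 rows. The 22 of the reproductive tract differed by -0.15 to 0.46, and 21 of them had 6-array means at or under 3.60. The exception was Adam3, a sperm surface gene needed for fertilisation in mice, which read 4.45, 4.56 and 4.68 in the knockout arrays, against 4.39, 4.58 and 3.99 in the control arrays. Its groups overlapped (limma adjusted p = 0.403). Adam3 stands in a run of 5 neighbouring ADAM genes on chromosome 8, in RefSeq order, with Adam18, Adam5, Adam32 and the somatic gene Adam9, and none of the 5 passed. Adam1a, a gene active in testicular germ cells, read 3.03, 3.35 and 3.46 in the knockout arrays, against 2.94, 2.60 and 2.91 in the control arrays. The groups did not overlap, and the adjusted p was 0.0824 (limma). It passed in 1 of 13 alternative fits, the one without knockout replicate 1. The 3 neural members without a catalytic site, Adam11, Adam22 and Adam23, differed by -0.11 to -0.02. Several of the reproductive genes are close copies of each other and may share signal.

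**Figure D3:**
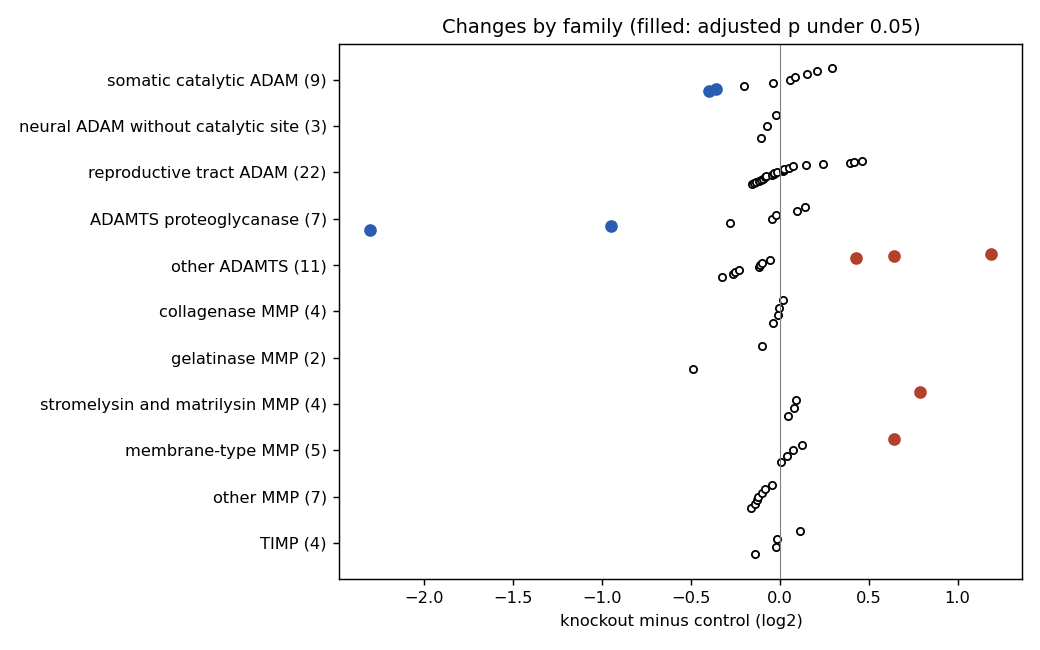
Change (knockout minus control, log2) of every member by family group, with the number of genes in brackets. Filled circles passed the test (red higher, blue lower in the knockout): 2 falls lie among the proteoglycan-cutting ADAMTS, 2 among the somatic catalytic ADAMs, 3 rises among other ADAMTS and 2 among MMPs.

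Among 22 MMP genes 2 rose and none fell (limma), or 9.09% called beside 9.75% of all rows. Of the 22, 3 had an unadjusted p under 0.05, as had 5780 of all 25206 rows. Mmp10 (Entrez gene 17384, chromosome 9) encodes stromelysin 2, which cuts proteoglycans and glycoproteins of the matrix and activates other MMPs. It read 7.0, 6.94 and 6.60 in the knockout arrays, against 5.78, 6.15 and 6.25 in the control arrays. No array of 1 group fell in the range of the other, and the rise was 1.73-fold (limma adjusted p = 0.0159). It missed the threshold without knockout replicate 1 (limma adjusted p = 0.0538) and without knockout replicate 2 (limma adjusted p = 0.0585). The limma fit without moderation missed it too (adjusted p = 0.121).

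Mmp10 lies in a run of 10 MMP genes on chromosome 9 with no other protein-coding gene between them in RefSeq order. Its 9 neighbours in the run are the collagenase genes Mmp1a, Mmp1b, Mmp8 and Mmp13, with Mmp3, Mmp7, Mmp12, Mmp20 and Mmp27. All 9 had group means of 1.24 to 2.97, under 3.60, and none of them passed. Mmp1a and Mmp1b are close copies and may share probes' signal. Mmp25 (Entrez gene 240047), the gene of a leukocyte MMP held to the membrane by a lipid anchor, lies elsewhere, on chromosome 17. It read 5.45, 5.76 and 5.55 in the knockout arrays, against 5.02, 4.93 and 4.88 in the control arrays. Every knockout array was above every control array, a 1.56-fold rise (limma adjusted p = 0.0071). The other 4 membrane-type MMP genes, Mmp14, Mmp16, Mmp17 and Mmp24, differed by 0.01 to 0.13 and did not pass. Nor did Mmp11, Mmp19, Mmp21, Mmp23 and Mmp28, with differences of -0.12 to 0.09.

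**Figure D4:**
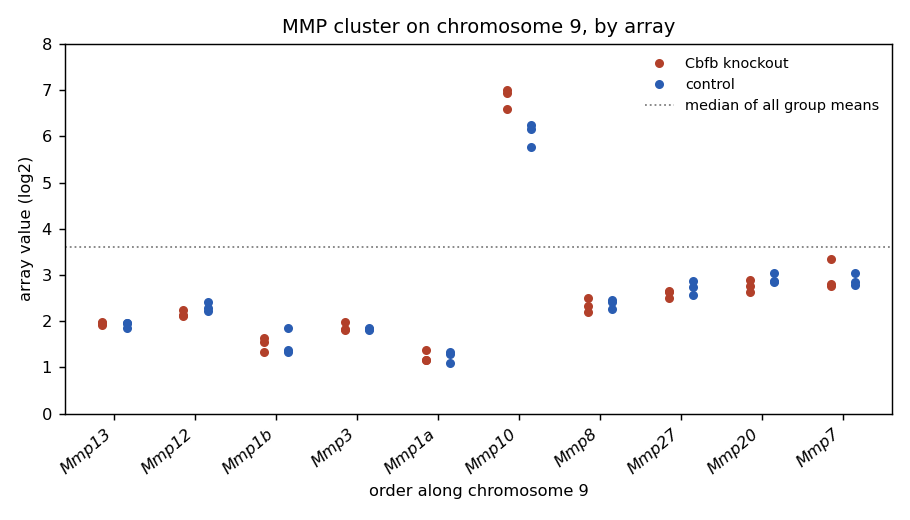
Array values (log2) of the 10 MMP genes in their order along chromosome 9, in 3 knockout (red) and 3 control (blue) arrays. Mmp10 lies above the dotted line at 3.60, the median of all group means, and is higher in every knockout array; the other 9 lie under that line in all 6 arrays.

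The gelatinase genes read low. Mmp9, which cuts denatured collagen, read 2.63, 3.06 and 2.59 in the knockout arrays, against 3.28, 3.08 and 3.39 in the control arrays. The groups did not overlap, but knockout replicate 2 lay just under control replicate 2, and the difference of -0.49 did not pass (limma adjusted p = 0.0754), although it did without knockout replicate 2 (adjusted p = 0.0259). Mmp2, the other gelatinase gene, averaged 2.71 ± 0.25 in knockout and 2.81 ± 0.13 in control (SD, n = 3 each, limma adjusted p = 0.744). The 4 inhibitor genes did not pass either. Timp1 averaged 2.22 in knockout and 2.24 in control (95% interval of the difference -0.25 to 0.21), and Timp2 2.81 in knockout and 2.83 in control (interval -0.28 to 0.23). Timp4 differed by 0.11 (interval -0.11 to 0.34). Timp3, the TIMP that also blocks ADAM17 and several ADAMTS enzymes, read 3.52, 3.45 and 3.95 in the knockout arrays, against 4.01, 3.27 and 4.06 in the control arrays. Its control arrays hold both the lowest and the highest of the 6 values, and its interval was the widest of the 4, -0.65 to 0.37.

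ADAMs reach the cell surface and choose substrates with the help of partner proteins, so a list of 12 chaperones and partners was examined beside them. In it 1 gene rose, 1 fell and 10 did not pass, or 16.7% called beside 9.75% of all rows, with a median of -0.02. Every gene called in this list and those below had a 6-array mean above 3.60, where 18.1% of all rows were called. No test was made of the shares of these lists. The fall was that of Rhbdf2, which encodes iRhom2, the carrier of ADAM17 to the surface of immune cells. It read 6.21, 6.31 and 6.22 in the knockout arrays, against 7.77, 7.76 and 7.75 in the control arrays. The groups lay far apart beside their spread, 2.85-fold lower in the knockout (limma adjusted p = 7.31e-05), and the call held in each of 14 alternative fits. The related gene Rhbdf1 averaged 3.56 in knockout and 3.52 in control and did not pass. The rise was that of Tspan14, a tetraspanin that accompanies ADAM10. It read 8.44, 8.47 and 8.37 in the knockout arrays, against 8.02, 7.94 and 7.98 in the control arrays, a change of 0.45 (limma adjusted p = 0.0109) that missed the threshold without control replicate 2 (adjusted p = 0.0514).

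Most of these enzymes are made as inactive precursors that furin-like convertases or plasmin-generated cleavage activate. Of 11 measured convertase and plasminogen system genes, 1 rose and 1 fell (median 0.06), or 18.2% called beside 9.75% of all rows. Furin averaged 11.22 ± 0.079 in knockout and 11.54 ± 0.021 in control (SD, n = 3 each, limma adjusted p = 0.0442), and the call was lost whichever of the 6 arrays was dropped (adjusted p 0.0715 to 0.132). Plaur, the urokinase receptor gene, averaged 4.10 in knockout and 3.73 in control (limma adjusted p = 0.0456) and lost its call on dropping any array other than control replicate 1. Among 14 further inhibitors, of metalloproteases or of other proteases, 2 rose and none fell (median -0.04), or 14.3% called. Thbs1, the thrombospondin gene, rose by 0.72 and Cst3, which encodes the cysteine protease inhibitor cystatin C, by 0.55 on the log2 scale (limma adjusted p of 0.0264 for Thbs1 and 0.0124 for Cst3). Thbs1 lost its call on dropping any array other than control replicate 3 or knockout replicate 1. In 15 relatives outside the symbol rule, 3 genes, or 20%, rose and none fell (median -0.04). These were Tll1, a tolloid protease gene that processes procollagens (0.75), and the ADAMTS-like genes Adamtsl4 (0.63) and Adamtsl5 (0.51), whose products lack a protease domain. Adamtsl4 missed the threshold without control replicate 2 (limma adjusted p = 0.0526). Adamtsl5 lost its call on dropping any array other than control replicate 3.

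Of 24 measured genes for substrates of ADAM shedding, 2 rose, 3 fell and 19 did not pass (median -0.02). That is 20.8% called, beside 9.75% of all rows. The groups did not overlap in 13 of the 24, or 54.2%, beside 27.5% of all rows. Of the 24, 14 had a 6-array mean above 3.60, and the share without overlap was not taken for rows of like level. Il6ra, the IL-6 receptor chain gene, rose by 1.08 and Notch2, a receptor that ADAM10 cuts, by 0.46 on the log2 scale. Il6ra read 5.49, 5.67 and 5.91 in the knockout arrays, against 4.66, 4.70 and 4.48 in the control arrays, with no overlap. The falls were those of Havcr2, the gene of the inhibitory receptor TIM-3 (-1.53), of Hbegf, an EGF receptor ligand (-0.96), and of Il1r2, the decoy receptor for IL-1 (-0.58). Adjusted p lay between 0.000573 and 0.018 (limma) for the 5. Il1r2 lost its call on dropping any array other than control replicate 1 or knockout replicate 2. Tnf averaged 8.40 in knockout and 8.48 in control, and Notch1 8.45 in knockout and 8.60 in control, and neither passed. Array values measure transcripts, not shed protein.

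Of 19 measured matrix substrate genes 2 rose and none fell (median -0.0033), or 10.5% called beside 9.75% of all rows. Vcan encodes versican, the large proteoglycan that Adamts1 and Adamts5 cut. It read 7.11, 7.34 and 7.40 in the knockout arrays, against 5.69, 6.18 and 6.35 in the control arrays. All knockout arrays were higher, by 2.31-fold on average (limma adjusted p = 0.00411). A link between this rise and the falls of Adamts1 and Adamts5 was not tested. Dcn, the gene of the small proteoglycan decorin, averaged 5.0 ± 0.17 in knockout and 4.35 ± 0.21 in control (SD, n = 3 each, limma adjusted p = 0.0179). It lost its call on dropping any array other than control replicate 2 or knockout replicate 1. The collagen genes Col1a1, Col1a2, Col3a1, Col4a1, Col4a2 and Col5a1 did not pass.

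**Figure D5:**
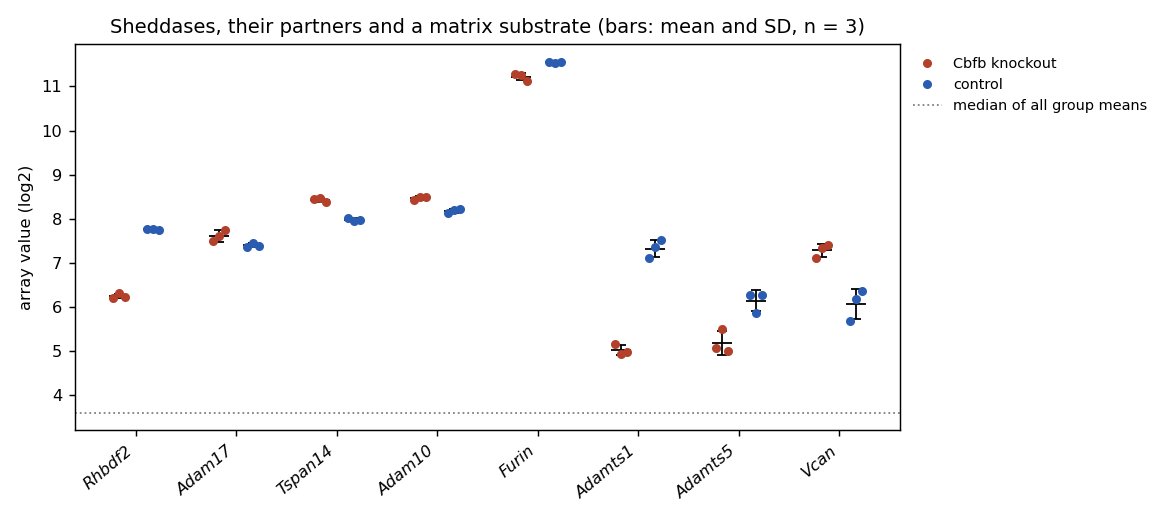
Array values (log2) of the sheddase genes Adam17 and Adam10, their partner genes Rhbdf2 and Tspan14, the convertase gene Furin, and Adamts1 and Adamts5 with their substrate gene Vcan, in 3 knockout (red) and 3 control (blue) arrays with mean and SD. Rhbdf2, Furin, Adamts1 and Adamts5 are lower and Adam17, Adam10, Tspan14 and Vcan higher in every knockout array than in any control array; the differences of Adam17 and Adam10 did not pass the test.

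Matrix proteases are also made by other cells, so their markers were measured in the same arrays. Of 12 fibroblast and stromal markers Dcn rose and none fell, or 8.33% called beside 9.75% of all rows. The mean of the list lay between 3.19 and 3.34 in knockout arrays and between 3.22 and 3.34 in control arrays. None of 11 macrophage and neutrophil markers passed (limma), and 1 had an unadjusted p under 0.05, as had 5780 of all 25206 rows. The means of this list were 3.14 to 3.30 in knockout and 3.27 to 3.37 in control. Of 12 mast cell and basophil markers 25% were called. The histamine-forming enzyme gene Hdc (1.46) and the factor gene Gata2 (0.76) rose and the carboxypeptidase gene Cpa3 (-2.91) fell. The means of this list were 2.90 to 3.02 in knockout and 3.0 to 3.12 in control. Some markers of these lists read above 3.60. Of the stromal markers, Dcn averaged 5.0 in knockout and 4.35 in control, Acta2 4.63 in knockout and 4.91 in control, and Col1a1 4.46 in knockout and 4.56 in control. Of the macrophage and neutrophil markers, Cd68 averaged 5.84 in knockout and 5.87 in control, Ly6g 5.01 in knockout and 5.42 in control, and Itgam 3.70 in knockout and 3.43 in control. Of the mast cell and basophil markers, Cpa3 averaged 3.96 in knockout and 6.87 in control, Hdc 5.39 in knockout and 3.93 in control, and Gata2 5.38 in knockout and 4.62 in control. All other measured markers of the 3 lists had both group means under 3.60, among them the receptor genes Pdgfra, Pdgfrb, Csf1r and Kit, with Adgre1 and Ms4a2 (1.66 to 3.14 for these 6). The part of other cells in the changes above was not tested.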

How the data were processed

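Total RNA from 6 sorted ILC2 samples, 3 per group, carried a biotin label and was measured on arrays of 1 colour, per the labels' protocols. The authors deposited 1 table of log2 expression values, with 1 row per Entrez gene, and RMA and limma 3.14.4 appear in the submitters' processing notes, their roles unstated. RMA corrects background, normalises arrays to nearly 1 distribution and summarises probes, so a shift shared by most genes would not show. The log2 scale was read from the values, 0.66 to 12.51. Of the 25206 rows, 23185 carry 1 symbol (0 carry several) and 2021 are unnamed here. All symbols matched RefSeq (GRCm38.p6) by Entrez number. The sources used here do not give the array's build, so member positions are given as chromosome and gene order alone.

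Values were used as deposited. The test was limma 3.58.1 in R 4.3.3 on all rows, knockout minus control, two-sided, with Benjamini-Hochberg adjustment over 25206 rows and a threshold of 0.05. A fold change is 2 to the power of the log2 difference. The number of arrays limits the precision. Members, lists and the rule for named genes (Cbfb, members past the threshold, the 10 with the highest means, members with adjusted p under 0.1, TIMPs and 4 set proteases, and list genes past the threshold) were chosen with earlier results of these data known. A few family, list and marker genes that did not pass were named after their values were seen. The fit was tested on simulated arrays. The alternatives were a replicate block, leaving out each array, repeated quantile normalisation, median centring, rows above the median level, another prior, array weights, no moderation, and named rows alone.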

Additional observations from a re-analysis of the deposited data

How the results depend on the processing

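Over 14 alternative fits, Cbfb, Adamts1 and Adamts6 passed the test in all, and Adamts5, Adamts10 and Mmp25 in all but the fit without moderation. The list genes Vcan, Hbegf and Cst3 also missed in that limma fit alone (adjusted p of 0.0701 for Vcan, 0.109 for Hbegf and 0.0667 for Cst3). Adam19 and Adamts13 were lost most often, and Adam10 was gained in 6 fits. The samples share only a number: deviations of same-numbered arrays correlated at 0.0067 to 0.054, so no pairing was assumed. With the replicate number as a block, 1745 rows were called, with 4 members higher and 2 lower, and Adam8, Adam19 and Adamts13 were lost. Without moderation 1254 rows were called, with 2 members higher and 2 lower. Leaving out 1 array gave 1307 (without control replicate 2) to 1837 (without knockout replicate 1) called rows, with 3 to 5 members higher and 2 to 3 lower. The lowest counts of members were without knockout replicate 2 (3 higher) and without control replicate 2 (2 lower). Without control replicate 3, 1565 rows were called, without knockout replicate 2 1478 and without knockout replicate 3 1517. Differences of Timp1 and Timp2, which never passed, changed sign: Timp1 lay between -0.0967 and 0.0583 and Timp2 between -0.128 and 0.0617 on leaving out 1 array, and Timp1 was 0.0026 with array weights. The table holds no background or detection measure, so how far low signal limits the members' values is not known, and the cause of lost calls was not tested.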
